A study of Homo sapiens with 6 samples.

Results

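The annexins are a family of proteins that bind acidic phospholipids in a calcium-dependent manner. Each has a conserved core of repeated domains that carries the calcium sites, and an N-terminal stretch of its own that gives most members their partners. They take part in the organisation and traffic of membranes, in the repair of the plasma membrane and, outside the cell, in inflammation and fibrinolysis. ANXA9 is an unusual member whose core has lost the typical calcium sites, and ANXA13 is known as the annexin of the intestinal epithelium.

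Annexin expression was measured in DLD-1, an APC-mutant line derived from a human colorectal adenocarcinoma, and ANXA9 was set against the other 9 members. The 10 genes were ANXA1, ANXA2, ANXA3, ANXA4, ANXA5, ANXA6, ANXA7, ANXA9, ANXA11 and ANXA13, out of 18404 genes on the arrays that were named by 1 symbol. Each was covered by exactly 1 probe set, out of 32321 in the deposited table. A further 4 probe sets pair an annexin with another gene and were not used. ANXA9 had been chosen because it passed the limma test between the groups (adjusted p = 0.0252), so its difference is described here and not tested again. The annexin nearest to that threshold from outside was ANXA6 (limma adjusted p = 0.183).

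The comparison was between 2 groups of 3 arrays each. DLD-1/DKK1 cells carried a lentivirus from which doxycycline induces DKK1, which outside the cell blocks Wnt receptors, with a V5 tag and a GFP marker. A vector with the GFP marker but no DKK1 was also made. DLD-1/Mock cells carried a virus described as having no ectopic gene, and whether it held GFP is not stated. Both were given doxycycline, as 10 mg/ml in the labels and with the same figure in μg/ml in the methods, for a day. No isolation of clones is mentioned for the transduced cells, and the parental line is described as lacking DKK1 expression of its own. The 3 dishes per group are described as independent, and since separate transductions are not mentioned, p-values cover no more than dish-to-dish spread.

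The arrays were first checked against their labels. DKK1 itself had log2 expression of 5.15, 5.74 and 5.01 on the DLD-1/Mock arrays and of 12.30, 12.38 and 12.36 on the DLD-1/DKK1 arrays. Of 10 markers of colorectal epithelium, the cadherin CDH1 had means of 12.38 and 12.39 and the transcription factor CDX2 of 10.56 and 10.62 in DLD-1/Mock and DLD-1/DKK1, while KRT20, a keratin of differentiated colon epithelium, was dim (5.51 and 5.60). None of the 10 passed in limma, beside 0.0866% of all probe sets, and 0 had an unadjusted p under 0.05, beside 9.23%. In 5 the groups did not overlap, beside 16.5% of all probe sets. Of these the keratins KRT8 and KRT18 and the transcription factor CDX1 were lower with DKK1, at log2 differences of -0.11, -0.08 and -0.09, and VIL1 and LGALS4 were higher, at 0.11 and 0.09. PTPRC, which marks all leukocytes, lay at 4.34 in both groups. Across probe sets Mock 2 was the least like the rest, at correlations of 0.9953 to 0.9969.

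Promoter sequences of the members are shown first, since they are what the genes carry in front of the transcripts that were measured. RefSeq promoter entries (GRCh38.p14) existed for 9 of the 10 members, in 13 windows, and ANXA13 had none. The 250 bases before the annotated start were examined. Those of ANXA9, of ANXA6 and of ANXA5 are printed 5′ to 3′ with every CpG in capitals. ANXA9 and ANXA6 were the members with the largest differences between the groups, and ANXA5 stands for those with hardly any.
ANXA9 (chr1:150982042-150982291, plus strand): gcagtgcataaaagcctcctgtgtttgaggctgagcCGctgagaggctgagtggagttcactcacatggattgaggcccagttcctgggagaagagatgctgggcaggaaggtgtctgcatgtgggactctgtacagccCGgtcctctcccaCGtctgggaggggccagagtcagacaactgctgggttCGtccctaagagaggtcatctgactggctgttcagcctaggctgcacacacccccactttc
ANXA6 (chr5:151157780-151158029, minus strand): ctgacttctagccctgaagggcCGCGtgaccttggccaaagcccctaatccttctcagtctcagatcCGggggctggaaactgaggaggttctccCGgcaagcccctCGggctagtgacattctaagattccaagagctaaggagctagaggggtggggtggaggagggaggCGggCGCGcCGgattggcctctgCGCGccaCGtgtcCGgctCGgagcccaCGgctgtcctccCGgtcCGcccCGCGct
ANXA5 (chr4:121696981-121697230, minus strand): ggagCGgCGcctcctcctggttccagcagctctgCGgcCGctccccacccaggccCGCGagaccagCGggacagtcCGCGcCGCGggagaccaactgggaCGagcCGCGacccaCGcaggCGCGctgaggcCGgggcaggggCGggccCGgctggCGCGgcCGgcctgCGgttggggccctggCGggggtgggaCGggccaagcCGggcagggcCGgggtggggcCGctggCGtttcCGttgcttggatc
The ANXA9 window held 4 CpG at a GC content of 58.0%. The ANXA6 window held 19 and the ANXA5 window 31, at 65.6% and 78.8% GC. Across all 35114 windows of the table the median was 11 CpG, and 34.3% had as few as ANXA9 or fewer. ANXA9 was not the poorest of the family, because the window of ANXA1 held 0 CpG at 38.4% GC. ANXA6 has a second window with 10 CpG, ANXA11 has 3 windows with 9, 22 and 5, and ANXA4 has 2 with 36 and 21. The windows of ANXA2, ANXA3 and ANXA7 held 28, 18 and 20.

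The letters of known sites were searched on both strands of the same 250 bases. CTTTGAT, the core letters bound by TCF/LEF factors of the Wnt pathway, was found in 0 of the 13 annexin windows and in 2.26% of all windows. TGANTCA, the letters of an AP-1 site, was found in 1, that of ANXA2, and in 6.57% of all. TATAAA was found in 3 (ANXA1, ANXA2 and the window of ANXA11 with 9 CpG) and in 10.7% of all, and CCAAT in 4 (ANXA1, ANXA7, the printed window of ANXA6 and the window of ANXA11 with 5 CpG) and in 32.0% of all. A match or its absence describes these letters only. Nothing in the ANXA9 window matched any of the 4 motifs.

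The main comparison asked how far the annexins share a difference between cells with and without DKK1. ANXA9 was the annexin with the widest difference, lower with DKK1 at a log2 difference of -0.58 (SE 0.05; 95% interval -0.69 to -0.47), or 1.49-fold. ANXA6 had -0.23 and ANXA3 -0.12, and the remaining 7 annexins lay between -0.02 and 0.10 with overlapping groups. In bulk RNA, a lower level in every cell and fewer cells with the transcript cannot be told apart.

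ANXA9 had log2 expression of 9.27, 9.34 and 9.26 in DLD-1/Mock and of 8.67, 8.77 and 8.70 in DLD-1/DKK1. The group means were 9.29 ± 0.04 and 8.71 ± 0.05 (SD, n = 3). All 3 DLD-1/DKK1 arrays lay below all 3 DLD-1/Mock arrays, and the gap between the nearest arrays of the groups was 0.49, against an SD within groups of 0.046. Leaving out any one array left the log2 difference between -0.60 and -0.55, -0.55 without Mock 2. The limma adjusted p was then 0.0850 to 0.175, with fewer arrays in the fit, and 0.0850 without Mock 2.

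ANXA6, which is built from a duplicated annexin core and works at the plasma membrane and in endosomes, gave 10.03, 10.07 and 10.10 in DLD-1/Mock. In DLD-1/DKK1 it gave 9.82, 9.85 and 9.83. Its groups did not overlap either, with a log2 difference of -0.23 (SE 0.04; 95% interval -0.33 to -0.14). That difference lay between -0.25 and -0.21 with each array left out in turn, and was -0.18 after median centring.

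ANXA3, an annexin of granule and membrane fusion, gave 11.44, 11.42 and 11.43 in DLD-1/Mock and 11.33, 11.33 and 11.28 in DLD-1/DKK1. Again all arrays of DLD-1/DKK1 were lower. The log2 difference was -0.12 (SE 0.04; 95% interval -0.21 to -0.03), and it was as little as -0.06 after each array was centred on its median.

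Of the 10 annexins, 1 passed the limma threshold, ANXA9, beside 0.0866% of all probe sets in either direction and 0.0495% lower. In 3 of the 10 the groups did not overlap, all of them lower in DLD-1/DKK1, beside 16.5% of all probe sets in either direction, 8.55% lower and 7.91% higher. The same contrast had served to choose ANXA9, so these counts describe the members and support nothing. ANXA6 and ANXA3 were the other 2 members with an unadjusted limma p under 0.05, as were 9.23% of all probe sets, and neither passed after adjustment.

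**Figure D1:**
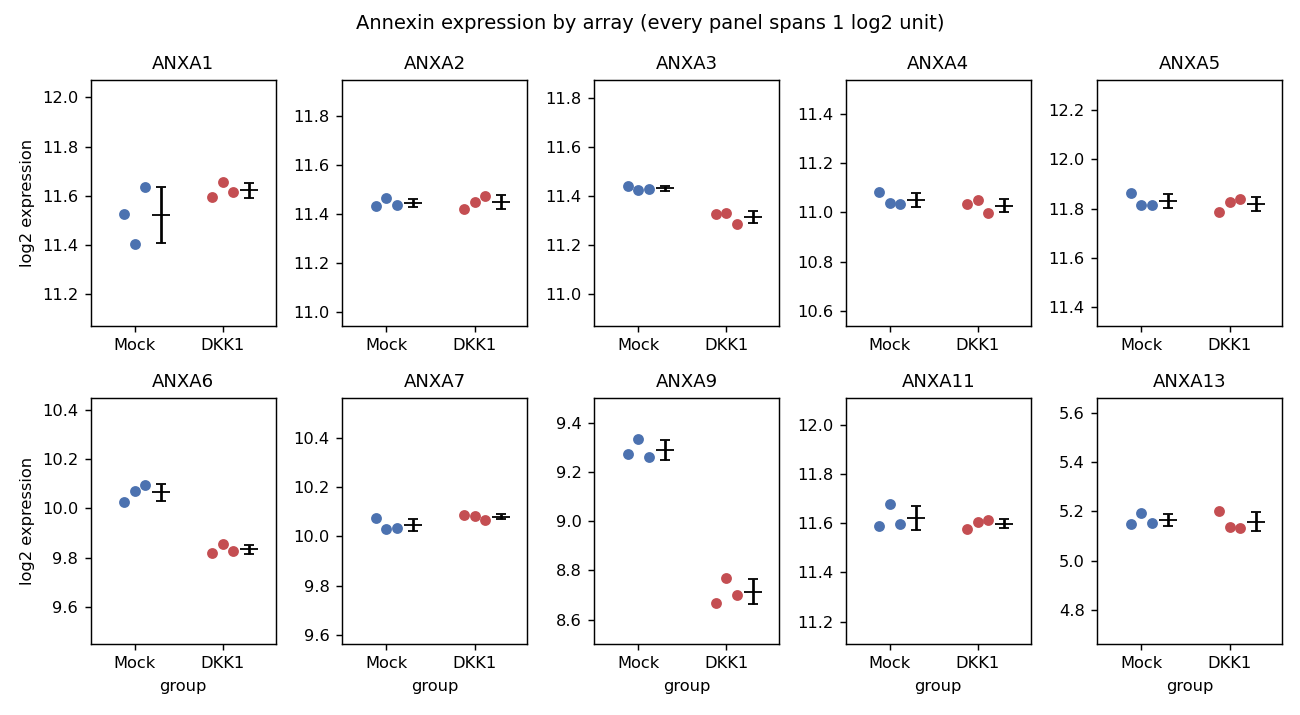
Log2 expression (vertical axis) of the 10 annexins by group (horizontal axis), where each point is an array, in the order of replicate numbers, and the dash with error bars beside them is the mean ± SD (n = 3); every panel spans 1 log2 unit around its own gene. The groups are apart for ANXA9 (9.29 against 8.71), ANXA6 (10.06 against 9.83) and ANXA3 (11.43 against 11.31) and overlap in the other 7 panels.

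The groups overlapped for the annexins of inflammation and fibrinolysis, ANXA1 and ANXA2. ANXA1, a glucocorticoid-induced protein that acts on formyl peptide receptors, gave 11.52, 11.41 and 11.63 in DLD-1/Mock and 11.60, 11.66 and 11.61 in DLD-1/DKK1. Mock 2 and Mock 3 were the lowest and close to the highest of the 6 arrays, so that ANXA1 had the widest spread of the family, with an SD of 0.11 in DLD-1/Mock. Its log2 difference was 0.10 (95% interval -0.05 to 0.25), and 0.04 without Mock 2. ANXA2, which with S100A10 assembles plasminogen activation at the cell surface, gave 11.43, 11.46 and 11.44 against 11.42, 11.45 and 11.47. The groups overlapped, with a log2 difference of 0.00 (95% interval -0.09 to 0.09).

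Copies of ANXA2 bear on that value, since its processed pseudogenes are close to it in sequence and signal may be shared. The ANXA2P1 probe set had means of 8.29 and 8.27 in DLD-1/Mock and DLD-1/DKK1, and that of ANXA2P2 had 12.33 and 12.30. Their log2 differences were -0.02 each. ANXA2P3 had -0.16 (SE 0.06; limma adjusted p = 0.510).

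Among the annexins of membranes and secretion, ANXA4 and ANXA5 gave narrow values. ANXA4, abundant in epithelia, lay between 11.03 and 11.08 in DLD-1/Mock and between 10.9996 and 11.05 in DLD-1/DKK1. ANXA5, the phosphatidylserine binder used to stain apoptotic cells, lay between 11.81 and 11.86 and between 11.79 and 11.84. Their log2 differences were -0.02 (95% interval -0.12 to 0.07) and -0.01 (95% interval -0.11 to 0.08).

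ANXA7, the first annexin described in membrane fusion, and ANXA11, which tethers RNA granules to lysosomes, overlapped between the groups as well. ANXA7 gave 10.07, 10.03 and 10.03 in DLD-1/Mock against 10.09, 10.08 and 10.07 in DLD-1/DKK1. Its lowest DLD-1/DKK1 array lay under its highest DLD-1/Mock array by 0.0065, and the log2 difference was 0.03 (95% interval -0.06 to 0.12). ANXA11 gave 11.59, 11.68 and 11.60 against 11.58, 11.61 and 11.61, with a log2 difference of -0.02 (95% interval -0.12 to 0.08) that was 0.0051 without Mock 2.

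ANXA13 was dim in both groups, at 5.15, 5.19 and 5.15 in DLD-1/Mock and at 5.20, 5.14 and 5.13 in DLD-1/DKK1. This is percentile 26.4 of all probe sets, and no detection calls were used here, so expression above background was not shown. Its log2 difference was -0.01 (95% interval -0.11 to 0.09). The other 9 members lay above the median brightness of the arrays. Brightness depends on the probes as well as on the transcript, so the levels of different annexins were not ranked.

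Several of the least differences changed sign with the scaling. Centring each array on its median adds the same constant to every difference, and with it ANXA4, ANXA5, ANXA11 and ANXA13 turned to 0.03, 0.04, 0.03 and 0.04, while after quantile normalisation ANXA2 turned to -0.01 and ANXA13 to 0.01. Across the 10 members the median log2 difference was -0.02, beside -0.01 for all probe sets. The median size without sign was 0.024 in the 9 annexins other than ANXA9 and 0.059 in all probe sets. These sets were not matched for brightness, and 9 of the 10 members are brighter than the median probe set.

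**Figure D2:**
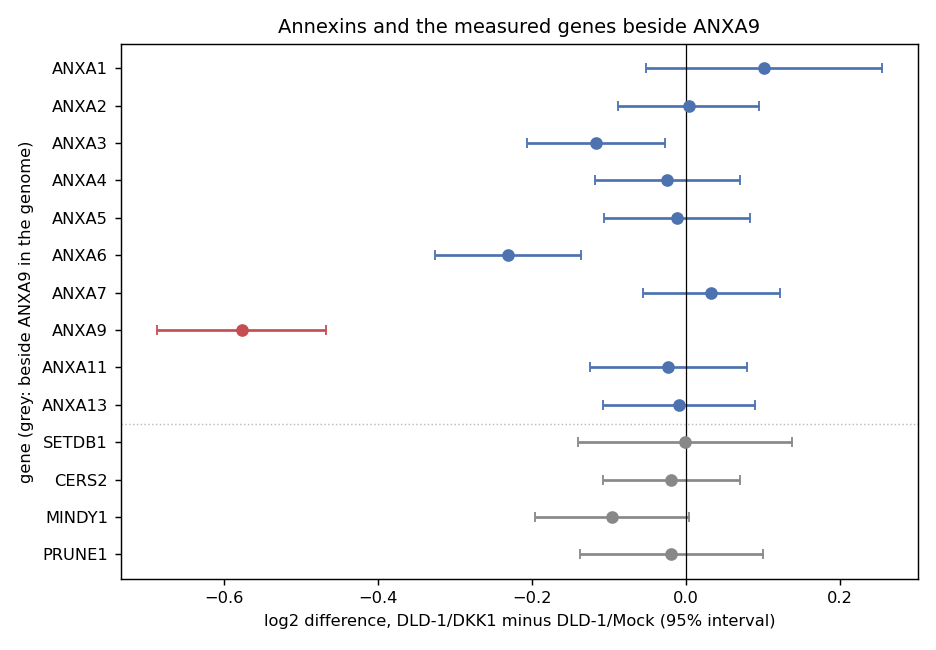
Log2 difference of DLD-1/DKK1 minus DLD-1/Mock (horizontal axis) for the 10 annexins and, in grey, the 4 measured genes beside ANXA9 (vertical axis), where points are limma estimates from 3 arrays a group and error bars span the 95% interval. ANXA9 lies at -0.58, apart from ANXA6 at -0.23, ANXA3 at -0.12 and all the rest.

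ANXA9 was next set against its family on each array. The log2 value of ANXA9 minus the mean of the other 9 was -1.19, -1.12 and -1.21 in DLD-1/Mock and -1.76, -1.67 and -1.73 in DLD-1/DKK1. The difference between groups in this quantity was -0.55, with an SD of 0.046 in DLD-1/Mock and 0.043 in DLD-1/DKK1. The mean of the other 9 was 10.46 in DLD-1/Mock (SD 0.0065) and 10.43 in DLD-1/DKK1 (SD 0.0093). This mean was itself lower on every DLD-1/DKK1 array, by -0.03 between the groups. Median centring cannot change the value of ANXA9 minus the others, since a constant per array cancels in it. The quantity was -0.54 after quantile normalisation and -0.54 after cyclic loess. Its level depends on the probes and has no meaning by itself.

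Genes beside ANXA9 in the genome were examined next, to see if the difference extended along the chromosome. Of the 3 annotated genes on each side, 4 were measured. SETDB1, a histone methyltransferase, had a log2 difference of 0.00 (95% interval -0.14 to 0.14), and CERS2, a ceramide synthase, one of -0.02 (95% interval -0.11 to 0.07). PRUNE1, a phosphoesterase, had -0.02 (95% interval -0.14 to 0.10). MINDY1, a deubiquitinase that lies directly after ANXA9 on the chromosome among protein-coding genes, gave 7.68, 7.64 and 7.62 in DLD-1/Mock and 7.55, 7.51 and 7.59 in DLD-1/DKK1. The groups of MINDY1 did not overlap, with a log2 difference of -0.10 (95% interval -0.20 to 0.0046; limma adjusted p = 0.554). None of the 4 passed in limma, beside 0.0866% of all probe sets, and 0 had an unadjusted p under 0.05, beside 9.23%. MINDY1 was the 1 of 4 with groups apart, beside 16.5%.

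The genes whose profile over the 6 arrays was most like that of ANXA9 were CST7, LGALS3BP, RAC2, LCN2 and ICAM2. Likeness was the root mean square difference between log2 profiles, each centred on its own mean. It was 0.025 for CST7, a cystatin of leukocytes and other cells, 0.026 for LGALS3BP, a secreted galectin ligand, and 0.037 for RAC2, a small GTPase of blood cells. LCN2, a siderophore-binding protein of mucosal defence, had 0.053 and ICAM2, an adhesion molecule, 0.060. The group difference dominates this measure over 2 groups, so these are genes lower in DLD-1/DKK1 by a like amount, with log2 differences of -0.54 for CST7, -0.61 for LGALS3BP, -0.56 for RAC2, -0.60 for LCN2 and -0.62 for ICAM2. They were picked on that contrast and the values are descriptions. Among the annexins, ANXA6 had the profile nearest to ANXA9, at 0.177.

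**Figure D3:**
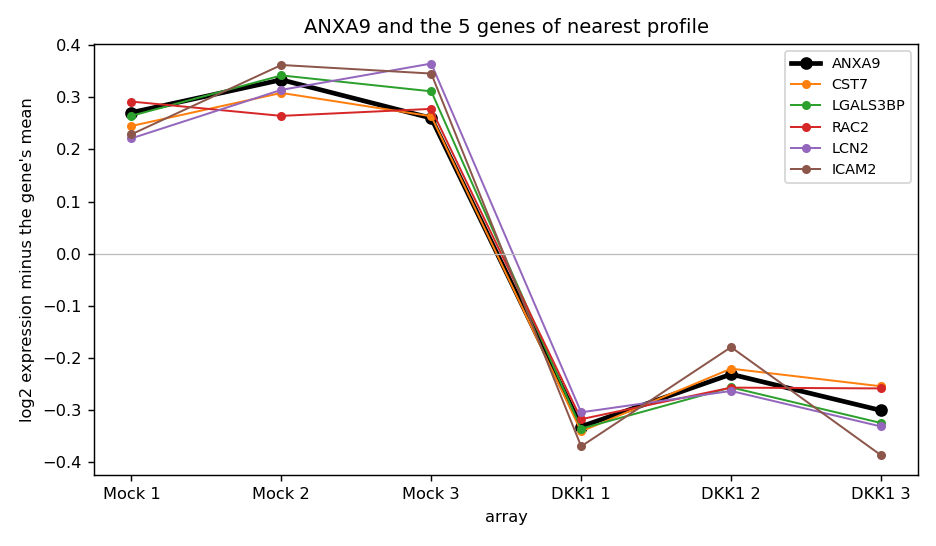
Log2 expression minus the mean of each gene (vertical axis) on the 6 arrays (horizontal axis) for ANXA9, in black, and the 5 genes of nearest profile, 1 line per gene. All 6 genes lie above 0 on the 3 DLD-1/Mock arrays and below 0 on the 3 DLD-1/DKK1 arrays, and the lines join separate samples that have no order.

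Since several of these genes are known from blood cells, markers of other cells are given beside them. Of 8 measured leukocyte markers 6 lay below 0, 0 passed in limma and 2 had an unadjusted p under 0.05, beside 9.23% of all probe sets. These were the monocyte marker CD14 and the lysosomal CD68, with log2 differences of -0.27 and -0.26 and all DLD-1/DKK1 arrays lower, the direction of ANXA9. They were the only 2 of the 8 with groups apart, beside 16.5% of all probe sets. ITGAM and LYZ of the same list had -0.02 and 0.02, with overlapping groups. The mean log2 level of the 8 was 5.51 to 5.60 on the DLD-1/Mock arrays and 5.43 to 5.48 on the DLD-1/DKK1 arrays. PTPRC had a log2 difference of 0.00 at percentile 9.83 of brightness, and the T cell marker CD3D and the B cell marker MS4A1 lay at means of 5.38 and 4.72 in DLD-1/Mock. Of 5 endothelial and 7 fibroblast markers, 5 and 5 lay below 0. None of these passed, beside 0.0866% of all probe sets, with 0 at an unadjusted p under 0.05, beside 9.23%. In 1 of each the groups were apart and lower with DKK1, beside 8.55% of all probe sets. These were PECAM1 at -0.10 and COL3A1 at -0.15. For counts below or above 0, here and in the lists that follow, the share of all probe sets was not computed. The median log2 difference of all probe sets was -0.01, and every DLD-1/DKK1 array median lay below every DLD-1/Mock median. The part of other cells in the ANXA9 difference was not tested.

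Partners of the annexins and proteins of related function were drawn from 5 lists, with 80 genes measured of 87 listed. None passed in limma over all probe sets, while 12 had an unadjusted p under 0.05, 4 higher and 8 lower, beside 9.23% of all probe sets. In 16 of the 80 the groups did not overlap, 8 lower and 8 higher, beside 8.55% and 7.91% of all probe sets. The S100 proteins, small calcium binders that pair with annexins, had 15 of 20 members below 0 and a median log2 difference of -0.06. This median ran from -0.07 to -0.04 with each array left out in turn. It was -0.04 after quantile normalisation, -0.04 after cyclic loess and -0.01 after median centring. S100A10, the partner of ANXA2, gave 12.98, 12.91 and 13.11 in DLD-1/Mock and 13.02, 12.96 and 12.95 in DLD-1/DKK1, with overlapping groups (-0.02; 95% interval -0.16 to 0.12). S100A11, the partner of ANXA1, had a log2 difference of 0.03 (95% interval -0.07 to 0.12). For neither was a difference detectable with this number of arrays.

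S100P, a secreted ligand of the receptor RAGE, gave 10.41, 10.37 and 10.35 in DLD-1/Mock and 10.09, 10.07 and 10.14 in DLD-1/DKK1. All DLD-1/DKK1 arrays were lower, with a log2 difference of -0.27 (SE 0.04; limma adjusted p = 0.123). It passed in 1 of 15 alternative fits, that of annotated probe sets only (limma adjusted p = 0.0483). S100A8, a subunit of calprotectin, was dim, with means of 5.44 and 5.25 in DLD-1/Mock and DLD-1/DKK1 (limma adjusted p = 0.398).

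Receptors and targets of annexins had 7 of 12 members below 0 and a median log2 difference of -0.05. This median was -0.06 without DKK1 1, turned to 0.0042 without Mock 2 and was -7.3e-05 after median centring. The widest difference of all lists was that of PLA2G4A, the cytosolic phospholipase A2 that releases arachidonic acid and that ANXA1 is known to inhibit. PLA2G4A gave 6.56, 6.23 and 6.49 in DLD-1/Mock and 7.14, 7.19 and 7.0045 in DLD-1/DKK1. All DLD-1/DKK1 arrays were higher, and the log2 difference was 0.69 (SE 0.10; 95% interval 0.46 to 0.91; limma adjusted p = 0.105). PLA2G4A passed in 1 of 14 alternative fits, that of annotated probe sets alone (limma adjusted p = 0.0275). PLAT, the tissue plasminogen activator, had -0.19 (SE 0.05; limma adjusted p = 0.443).

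The formyl peptide receptors of ANXA1 were dim, with mean values of 4.81 and 4.67 for FPR1 in DLD-1/Mock and DLD-1/DKK1 and of 4.69 and 4.70 for FPR2. SRI, the calcium-binding partner of ANXA7, had a log2 difference of 0.12 (95% interval -0.05 to 0.28), or 0.05 without Mock 2 and 0.08 without DKK1 1, and AHNAK, a scaffold bound by ANXA2, one of -0.07 (95% interval -0.18 to 0.05). PDCD6, a partner of ANXA7 and ANXA11, was not analysed here. A gene outside the lists, ANXA2R, named for binding ANXA2, was singled out after its values were seen. It gave 6.47, 6.43 and 6.38 in DLD-1/Mock and 6.73, 6.75 and 6.75 in DLD-1/DKK1. Its groups were apart, at a log2 difference of 0.32 (SE 0.04; limma adjusted p = 0.0808).

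The 3 lists of related function are given by their counts, for which 9.23% of all probe sets had an unadjusted p under 0.05 and 16.5% had groups apart. Copines and other C2-domain proteins, which like annexins bind membranes with calcium, had 14 of 20 members below 0, 4 at an unadjusted p under 0.05 and 5 with groups apart. Their median was -0.03, between -0.05 (without Mock 1) and -0.03 with 1 array left out, and 0.03 after median centring. The smallest unadjusted p values were those of FER1L5, a ferlin (-0.19; limma adjusted p = 0.469), and of SYTL2, a Rab27 effector (0.15; limma adjusted p = 0.469). Membrane repair and ESCRT-III genes, which act with annexins at wounded membranes, lay above 0 in 11 of 16 cases, with 0 at an unadjusted p under 0.05 and 2 with groups apart. Their median was 0.03, and between 0.01 (without Mock 2) and 0.04 (without DKK1 3) with 1 array left out. After median centring it was 0.08. Phosphatidylserine exposure genes, apart from MFGE8, act on how much of the ANXA5 ligand faces outward. Of the 12 in the list, 7 were above 0, 2 had an unadjusted p under 0.05 and 3 had groups apart. Their median was 0.02, and between 0.0092 (without Mock 2) and 0.04 (without Mock 3) with 1 array left out. Median centring took it to 0.08. In that list the flippase ATP11A had 0.12 and MFGE8, a bridge to phagocytes, -0.10 (limma adjusted p = 0.512 and 0.524).

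**Figure D4:**
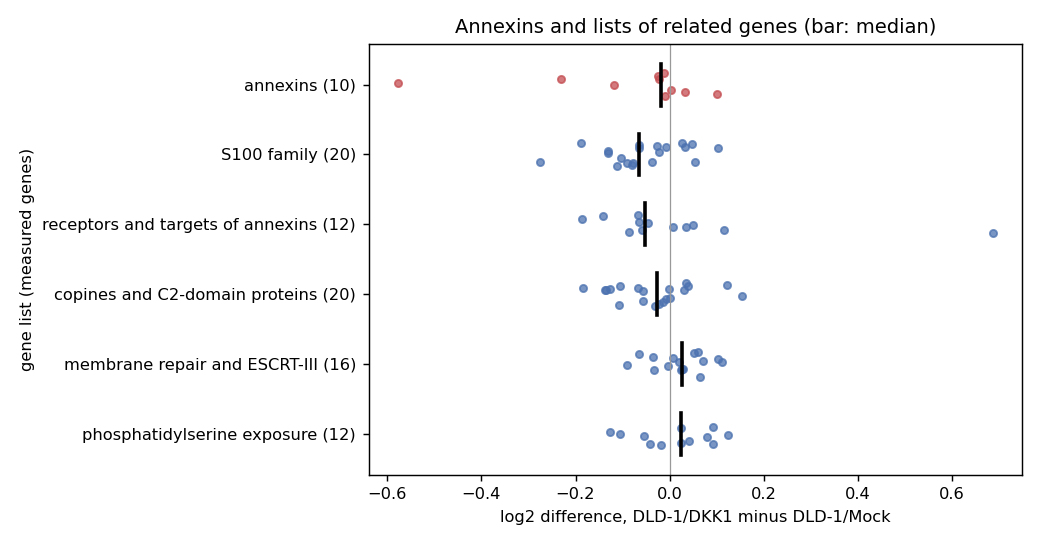
Log2 difference of DLD-1/DKK1 minus DLD-1/Mock (horizontal axis) for the annexins and the measured genes of 5 lists (vertical axis, number of genes in brackets), with points for genes, spread vertically for legibility, and a bar for the median. ANXA9 at -0.58 and PLA2G4A at 0.69 lie farthest from 0, and the medians run from -0.06 for the S100 family to 0.03 for membrane repair and ESCRT-III.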

How the data were processed

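Expression was measured on 6 arrays (Affymetrix Human Gene 1.0 ST), 3 per group. The authors read the scans into R with affy and deposited log2 values made by the robust multichip average method. It equalises the distributions of probe intensities, so that a change common to most transcripts is largely lost, and low values are compressed. Array medians of the deposited values were 6.82, 6.86 and 6.82 in DLD-1/Mock and 6.79, 6.76 and 6.81 in DLD-1/DKK1. Every DLD-1/DKK1 median thus lay below every DLD-1/Mock median. Their versions and annotation build are not given in the sources used here. Values were taken on the deposited log2 scale, and the scans were not used here.

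Samples were grouped by title. Symbols came from the platform annotation and were updated by gene number. Every probe set was fitted with limma 3.58.1 in R 4.3.3 (lmFit, eBayes), with 4 residual and 2.56 prior degrees of freedom, two-sided, with Benjamini-Hochberg adjustment over 32321 probe sets and a threshold of 0.05. For a listed gene with several probe sets the brightest was taken. Intervals are at 95%, and the number of arrays limits precision. The fit was tested on simulated data. Figures were drawn with matplotlib 3.10.9.

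The members, lists and alternatives were chosen with earlier results of these data known, and the motifs after the values had been seen. Named were the 10 annexins, DKK1, the measured neighbours among 3 genes on each side of ANXA9, the 5 nearest profiles, fixed partners and up to 2 genes per list with the smallest unadjusted p under 0.05, besides cell markers. ANXA2R, AHNAK, the FPR genes and the ANXA2 pseudogenes were added to these. Alternatives were quantile normalisation, median centring, cyclic loess, filters on dim or unannotated probe sets, other priors, no moderation, array weights, the replicate number as a block and each array left out in turn. Protein sequences were not used here.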

Additional observations from a re-analysis of the deposited data

How the results depend on the processing

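ANXA9 kept its direction in all 15 alternatives run on it and passed in 7 of them, with a limma adjusted p of 0.00517 to 0.223. Its log2 difference was -0.52 after median centring, which raised the median of all probe sets from -0.006 to 0.046, and -0.60 to -0.55 with 1 array left out. The number of annexins past the threshold was 1 in the 7 settings that kept the ANXA9 call and 0 without moderation, 0 with the replicate number as a block (ANXA9 at -0.58, limma adjusted p = 0.223) and 0 to 0 with each array left out. Across probe sets the numbers gave no sign of pairing, since deviations of same-numbered arrays correlated at 0.105, 0.008 and -0.137. Those of differently numbered arrays ran from -0.235 to 0.225. For ANXA9 alone, replicate 2 was the highest in both groups, at 0.05 above the DLD-1/Mock mean and 0.06 above the DLD-1/DKK1 mean. Of the listed partners, 2 passed among annotated probe sets (S100P and PLA2G4A). S100P passed in 1 of 15 alternatives and PLA2G4A in 1 of 14, with limma adjusted p up to 0.485 and 0.417. ANXA2R also passed among annotated probe sets (limma adjusted p = 0.0247), in 1 of 14 alternatives, with values up to 0.456. The share of all annotated probe sets called in that fit was not counted. SETDB1 turned to 0.051 after median centring and 0.0066 with array weights, PRUNE1 to 0.033 and 0.0011, CERS2 to 0.034 and S100A10 to 0.031 after centring. With 1 array left out SETDB1 ran from -0.050 to 0.029, PRUNE1 from -0.055 to 0.017 and S100A10 from -0.068 to 0.032, none of which passed. Taking all probe sets of the other annexins changed nothing, as each has 1. The cause of the other shifts was not tested. ANXA13 could not be fitted above the median brightness.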
